A study of Mus musculus with 12 samples.

Results

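The genes described here are 44 members of the unfolded protein response and of the secretory pathway that it serves, followed in mouse mammary tissue and mammary tumors. They were picked by name, with no threshold on their values but with earlier results of these data known: 6 stress sensors and transcription factors, 16 chaperones and folding enzymes of the XBP1/ATF6 type, 9 genes of ER-associated degradation, 6 genes of the ATF4 arm, and 7 genes of protein translocation and of the COPII coat. Of the 23301 gene names found in all 12 samples, 43 were members with rows of their own. Pdia4, a protein disulfide isomerase, occurred only in a row that joins it with the microRNA gene Mir704, and that row was kept outside every count. Ern2, the IRE1 form of mucus-producing epithelia, was listed at 0 FPKM in all 6 samples of normal tissue and untreated tumor and reached at most 0.284 FPKM elsewhere, so it was not tested. The other 42 members stood at or above 1 FPKM in all 12 samples, so none of them entered the tests through its higher group alone.

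Poly-A RNA was sequenced in 4 groups of 3 samples. Normal was the abdominal and inguinal mammary gland of 12-week-old wild-type FVB females, with 3 mice mixed in each replicate. Tumor was the untreated tumor of the thoracic gland of 12-week-old female MMTV-PyVT mice, also of the FVB strain, with 1 mouse per replicate. DMSO and C646 were the biggest tumor of 1 female MMTV-PyVT mouse per replicate, also at 12 weeks. These mice had been injected with the solvent DMSO or with C646, an inhibitor of the acetyltransferase p300 (the labels give 1 mg/kg for both). All groups but Normal thus carry the same transgene, a viral oncogene that the MMTV promoter switches on in mammary epithelium, and every sample is whole tissue. Values are FPKM, fragments scaled by gene length and by the mapped fragments of the library, which is a level per length. The number of reads behind them is not in the files used here. Genotype, tissue, gland position and pooling of mice differ together between Normal and Tumor and cannot be told apart. Normal with Tumor and DMSO with C646 were tabled by the authors as separate row sets, so tests were made within each pair and levels across the pairs are given side by side only.

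Secreted and membrane proteins enter the endoplasmic reticulum (ER) through the SEC61 channel, fold with the help of chaperones, and leave in COPII vesicles. When unfolded proteins build up, the sensor IRE1 splices Xbp1 mRNA into the form that encodes the active factor, ATF6 is cut free from the membrane to act in the nucleus, and PERK slows translation while favouring that of ATF4. XBP1 and ATF6 are known for inducing chaperones and degradation genes, ATF4 for genes of amino acid supply and of stress-linked cell death, and XBP1 is also known as a factor of secretory cells such as those of the lactating gland. FPKM per gene does not separate spliced from unspliced Xbp1 mRNA.

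Sequences already known from these arms were looked up in RefSeq promoters of GRCm38.p6, from 250 bases before to 50 bases after each start, on both strands. The lookup describes the members and is not a test of the arms. Of the 44 members, 37 had a promoter in the table, with 39 promoters among all 32851. The ER stress response element, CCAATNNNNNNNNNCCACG, was held by 0.119% of all promoters and by those of 9 members. Of these 9, 7 were among the 14 matched chaperones (Calr, Canx, Creld2, Dnajc3, Hsp90b1, Hspa5, Pdia6) and 2 among the 8 matched degradation genes (Derl3, Syvn1), while 0 of 6 matched ATF4-arm genes held it. The windows below show the element with 5 bases on either side, 5′ to 3′ on the strand of the gene, with the CCAAT and CCACG boxes, or their complements where the element runs on the other strand, in capitals. They lie at chr2:34772020-34772048 (+) for Hspa5, chr8:84847070-84847098 (-) for Calr, chr11:50325795-50325823 (-) for Canx, chr15:88819515-88819543 (+) for Creld2, chr12:17266486-17266514 (+) for Pdia6, chr10:86705528-86705556 (-) for the nearer of 2 matches in Hsp90b1, chr14:118937822-118937850 (+) for Dnajc3, chr10:75893237-75893265 (+) for Derl3 and chr19:6046527-6046555 (+) for Syvn1.
Hspa5: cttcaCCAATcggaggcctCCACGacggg
Calr: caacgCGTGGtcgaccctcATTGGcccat
Canx: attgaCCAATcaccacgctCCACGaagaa
Creld2: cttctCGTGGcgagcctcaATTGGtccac
Pdia6: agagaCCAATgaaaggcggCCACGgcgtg
Hsp90b1: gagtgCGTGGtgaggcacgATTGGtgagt
Dnajc3: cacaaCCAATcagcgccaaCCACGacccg
Derl3: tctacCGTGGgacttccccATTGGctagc
Syvn1: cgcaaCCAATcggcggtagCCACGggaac
In all 9 the first base of the element lies upstream of the RefSeq start, from 44 bases in Syvn1 to 162 in Calr. The Hspa5 window also overlaps an exon of Hspa5 in GENCODE vM21, and the other 8 overlap no exon of their own gene. Exons of neighbouring genes were not looked up.

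Other elements known from this response were rarer among the members. ERSE-II, the boxes ATTGG and CCACG with any 1 base between them, stood in 0.0365% of all promoters and in those of Herpud1 and Dnajb11. The core of the XBP1 site, TGACGTG, stood in 2.01% of promoters and in those of Hspa5 and Sec24d. The C/EBP-ATF element read by ATF4, TGATGNAA, stood in 3.97% of promoters and in those of Asns, Chac1, Trib3 and Herpud1, so that 3 of the 6 ATF4-arm genes and 0 of 14 matched chaperones held it. Herpud1, a degradation adaptor, is the member with an element of both kinds, and its ERSE-II (chr8:94386372-94386392, +) is shown beside the C/EBP-ATF elements of Chac1 (chr2:119351044-119351061, +) and Asns (chr6:7693220-7693237, -), with the fixed letters of each element in capitals.
Herpud1: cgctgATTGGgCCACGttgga
Chac1: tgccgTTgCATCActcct
Asns: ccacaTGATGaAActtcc
The Asns window overlaps an Asns exon in GENCODE vM21. The matches of Dnajb11 and Trib3 reach past the start and are not shown. A match is a stretch of letters and not evidence that a factor bound there.

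In tumor against normal tissue, 25 of the 42 tested members (59.5%) were higher and 2 were lower, by limma with Benjamini-Hochberg adjustment over 13031 genes at 0.05. Of all genes tested, 28.8% were higher and 31.7% lower (60.5% in either direction), and the median log2 fold change was 0.80 for the members against -0.02 for all genes. Among the members, higher calls were most frequent in folding and entry into the ER, with 12 of 15 chaperones and 6 of 7 translocation and COPII genes. Also higher were 3 of 9 degradation genes, 2 of 6 ATF4-arm genes and 2 of 5 sensors and transcription factors. Outside the module, 12 of 24 other ATF4 targets and 12 of 16 other ER folding enzymes were higher. Their median log2 fold changes were 0.69 and 0.67. The median log2 fold change was 1.19 for the chaperones, 1.11 for translocation and COPII, 0.29 for degradation, 0.28 for the ATF4 arm and -0.43 for the sensors and factors, the last of which moved to -0.09 under quantile normalization. The degradation median was 0.11 without Tumor replicate 3, and the ATF4-arm median was 0.14 without Tumor replicate 3, 0.17 without Normal replicate 3 and 0.47 without Tumor replicate 1. Every tumor was above every normal sample for 27 members and below for 4, while over all genes the groups were apart in this way for 33.1% upward and 35.8% downward. No test between the gene groups was made. Because these are bulk samples, fewer cells of a type and less RNA per cell cannot be told apart in any value that follows. The p-values weigh each difference against the spread between these samples only. Since each normal sample mixes 3 mice, the spread between single normal mice is not in them.

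**Figure D1:**
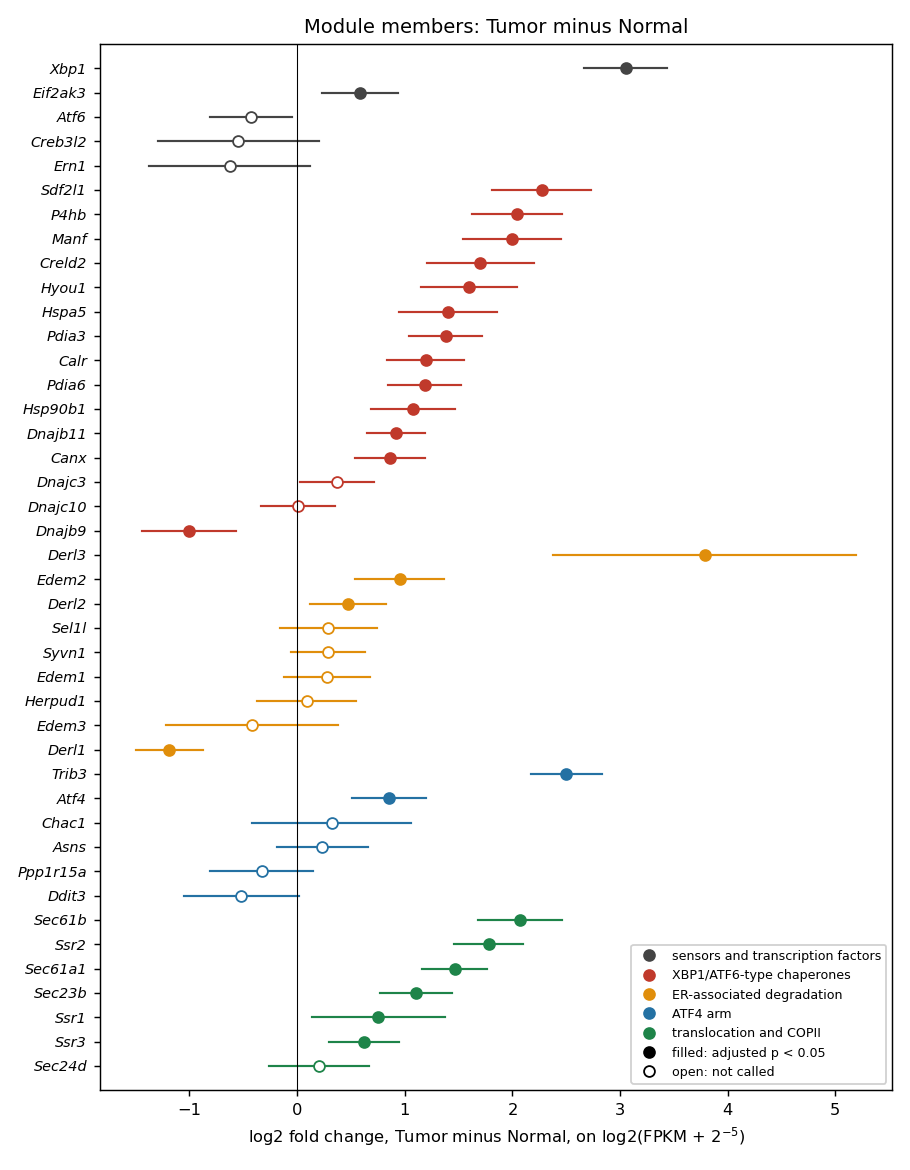
Log2 fold change of tumor over normal for each tested member, with 95% confidence intervals from limma (n = 3 against 3), ordered by role; filled points passed an adjusted p of 0.05. The chaperones and translocation genes lie mostly to the right of 0, with Dnajb9 at -1.01 and Derl1 at -1.19 to the left.

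Together the 43 members with their own rows held between 0.376% and 0.445% of the FPKM of named genes in Normal and between 0.793% and 1.10% in Tumor. In the injected tumors they held between 0.907% and 1.06% in DMSO and between 1.01% and 1.04% in C646. The chaperones alone held at most 0.271% of the named FPKM in each normal sample and at least 0.450% in each tumor. The degradation genes showed no such gap, with 0.0436% to 0.0458% in Normal and 0.0336% to 0.0519% in Tumor.

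Markers of cell types moved with this comparison, beside 28.8% of all genes higher and 31.7% lower. The summed FPKM of 8 luminal epithelial markers ran from 458 to 977 in Normal and from 3202 to 4358 in Tumor, and 7 of the 8 were higher, with a median log2 fold change of 2.70 and Krt18 as the most abundant. All 8 adipocyte markers, led by Fabp4, were lower, with sums of 26049 to 32748 in Normal and 102 to 2480 in Tumor. Plasma cells, whose secretory machinery is also large, had marker sums of 62.8 to 99.2 in Normal and 40.3 to 43.7 in Tumor, where 3 of the 4 tested markers were lower and Sdc1, which epithelia share, was higher. Skeletal muscle markers, led by Acta1, summed to 10.6 to 81.6 in Normal and 1539 to 4364 in Tumor, and all 5 were higher. Of the remaining markers, 5 of 5 for macrophages, 5 of 5 for endothelium, 4 of 5 for fibroblasts and 3 of 5 for myoepithelium were lower. Of the myoepithelial markers, 1 was higher. The 6 B lymphocyte markers summed to 239 to 303 FPKM in Normal and to at most 0.829 in Tumor. They entered the test through Normal alone, so their being lower, 6 of 6, was set by the filter. No marker was at 0 in all 6 samples. The part of these shifts in the members' values was not tested.

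Xbp1, the transcription factor at the centre of the IRE1 branch (chromosome 11, 5520659 to 5525893, forward strand, GRCm38), had 81.3, 62.0 and 85.3 FPKM in the normal samples and 638, 637 and 602 in the tumors. All 3 tumors lay far above all 3 normal samples and within 1.06-fold of each other. The ratio of means was 8.21, and the log2 fold change on log2(FPKM + 0.03125) was 3.05 with a 95% interval of 2.67 to 3.44 (limma, adjusted p = 2.27e-05). By level, Xbp1 ranked 10, 11 and 11 among the members in the normal samples and 1, 1 and 4 in the tumors.

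Of the other tested sensors and factors, only Eif2ak3 was called higher, and by less than Xbp1. Ern1, which encodes IRE1 and so the enzyme that splices Xbp1, had 4.10, 3.94 and 4.25 FPKM in Normal and 2.72, 1.67 and 4.06 in Tumor. The groups overlapped, and the log2 fold change of -0.62 (SE 0.32) was not called (limma, adjusted p = 0.127). Atf6 had 5.71, 5.97 and 6.96 FPKM in Normal and 4.51, 4.98 and 4.32 in Tumor. Every tumor was below every normal sample, but the log2 fold change of -0.43 (SE 0.16) stayed just outside the threshold (limma, adjusted p = 0.053). Creb3l2, a membrane-bound factor related to ATF6 with a role in secretory cells, had 5.17, 4.54 and 5.55 FPKM in Normal and 2.55, 2.81 and 5.76 in Tumor. Its highest sample was Tumor replicate 3, and its log2 fold change was -0.55 (SE 0.32, limma adjusted p = 0.174). Without Tumor replicate 3, Ern1 at -0.93 and Creb3l2 at -0.91 passed as lower (limma, adjusted p = 0.025 and 0.0097). Under quantile normalization Ern1, Atf6 and Creb3l2 were at -0.12, -0.09 and -0.13 and were not called (limma, adjusted p = 0.725, 0.655 and 0.722). Eif2ak3, which encodes PERK, was the sensor that rose, from 7.95, 8.15 and 8.90 FPKM to 11.6, 11.6 and 14.4. All tumors were above all normal samples, by 0.58 on the log2 scale (SE 0.15, limma adjusted p = 0.012).

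The largest increases among the chaperones were in soluble ER proteins. Sdf2l1, an ER protein that works with BiP, had 22.9, 25.8 and 27.2 FPKM in Normal and 123, 95.05 and 155 in Tumor. P4hb, the protein disulfide isomerase PDI, had 161, 143 and 146 FPKM in Normal and 543, 570 and 765 in Tumor. Manf, an ER stress-inducible secreted factor, had 33.9, 31.3 and 36.8 FPKM in Normal and 154, 102 and 157 in Tumor. For these 3 genes the lowest tumor was at least 2 times the highest normal sample. The log2 fold changes were 2.27 for Sdf2l1, 2.04 for P4hb and 1.99 for Manf (SE 0.19, 0.18 and 0.19, limma adjusted p = 9.47e-05, 9.96e-05 and 0.00015). Creld2, an ER protein with disulfide isomerase activity, had 29.5, 26.3 and 26.3 FPKM in Normal and 105, 63.9 and 106 in Tumor. It too was higher in each tumor, by 1.70 on the log2 scale (SE 0.21, limma adjusted p = 0.00046).

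Hspa5 encodes BiP, the main HSP70 of the ER and the usual gauge of the response, and its promoter holds the element shown first above. It had 179, 168 and 219 FPKM in the normal samples and 439, 450.2 and 612 in the tumors. The groups were apart, with a log2 fold change of 1.40 (SE 0.19, limma adjusted p = 0.00072). The other chaperones that rose spanned log2 fold changes from 0.86 for Canx to 1.598 for Hyou1. Between these lay Pdia3 at 1.38, the lectin chaperone Calr at 1.19, Pdia6 at 1.18, the ER HSP90 Hsp90b1 at 1.07 and the BiP cochaperone Dnajb11 at 0.92. The joined row of Mir704 and Pdia4 had 43.3, 31.8 and 41.7 FPKM in Normal and 92.7, 83.1 and 107.5 in Tumor, a log2 fold change of 1.28 (SE 0.17, limma adjusted p = 0.00062). Of the 9 genes with an ER stress response element in the promoter, 7 were higher in tumor and 2, Dnajc3 and Syvn1, were not called, beside 80% higher among the chaperones and 28.8% among all genes. The counts of higher genes were 1 of 2 for ERSE-II, 1 of 2 for the core of the XBP1 site and 1 of 4 for the C/EBP-ATF element.

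Among the chaperones, 3 of the J-domain proteins did not rise past the threshold, while Dnajb11, described above, did. Dnajb9, also called ERdj4 and known as a target of XBP1, was the lone chaperone that fell, which is why its values are shown. It had 42.0, 42.5 and 59.8 FPKM in Normal and 20.1, 25.5 and 25.5 in Tumor. Every tumor lay below every normal sample, and the log2 fold change was -1.01 (SE 0.19, limma adjusted p = 0.0027). Dnajc3, which restrains PERK, had a log2 fold change of 0.37 (SE 0.15, limma adjusted p = 0.061), and every tumor was above every normal sample. It passed as higher under median ratio scaling (0.41, limma adjusted p = 0.039) and without Tumor replicate 2 (0.48, limma adjusted p = 0.028). Under quantile normalization Dnajc3 did not pass (0.29, limma adjusted p = 0.134). Dnajc10, a disulfide reductase that helps degradation, had a log2 fold change of 0.01 (SE 0.15, limma adjusted p = 0.959), and its sign turned in some alternatives given at the end.

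**Figure D2:**
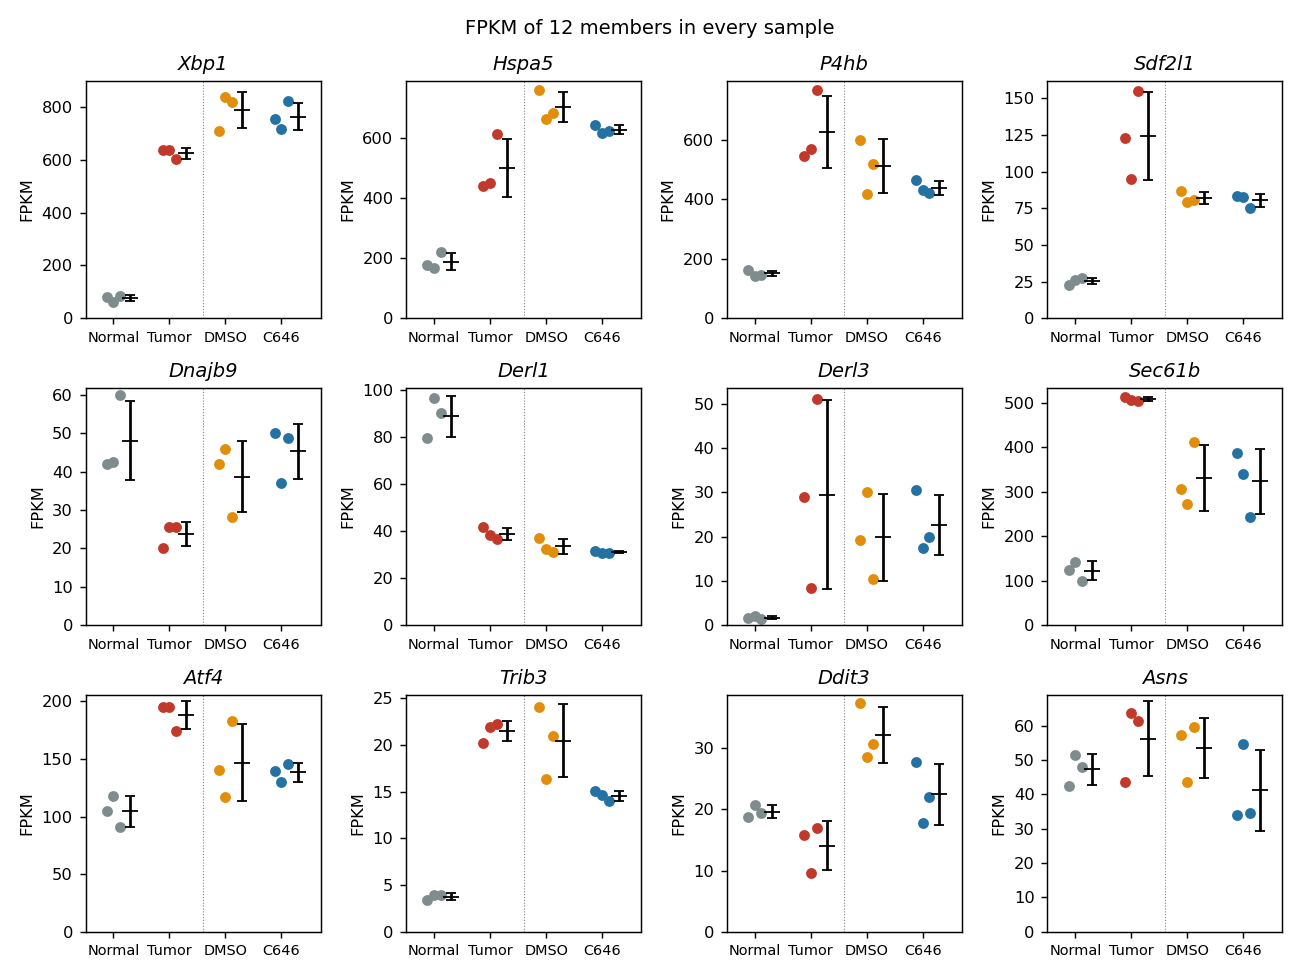
FPKM of 12 members in the 4 groups; points are samples and bars are mean ± SD (n = 3). Xbp1 sits between 62.0 and 85.3 in Normal and at 602 or above in each tumor group, Dnajb9 and Derl1 are lower in Tumor than in Normal, and the DMSO and C646 points overlap for most genes.

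Degradation genes were mixed, and the Derlin family, whose products sit in the ER membrane where misfolded proteins leave, moved in both directions. Derl3, the member known from secretory cells, had 1.57, 1.99 and 1.42 FPKM in Normal and 29.0, 8.34 and 51.1 in Tumor. It had the largest log2 fold change of the 42 members, 3.79, but also an interval of 2.38 to 5.20, since the tumors differed widely (limma, adjusted p = 0.0013). The change was 4.52 without Tumor replicate 2, 3.22 without Tumor replicate 3 and 3.20 with a pseudocount of 1. Derl1 fell from 79.4, 96.7 and 90.4 FPKM to 41.8, 38.2 and 36.7. The groups did not overlap, with a log2 fold change of -1.19 (SE 0.13, limma adjusted p = 0.00028). Derl2 rose from 16.9, 19.4 and 17.8 FPKM to 29.0, 21.7 and 24.8. The groups did not overlap, but its log2 fold change of 0.47 (SE 0.15, limma adjusted p = 0.028) held only when Tumor replicate 2 was the sample left out. Without each of the other samples in turn it was not called and lay between 0.36 (Tumor replicate 1) and 0.53 (Normal replicate 2), with adjusted p from 0.051 to 0.099. By level, Derl1 was the most abundant Derlin in every sample except Tumor replicate 3, where Derl3 was.

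Edem2, which helps to mark misfolded glycoproteins for degradation, rose from 26.2, 27.1 and 25.7 FPKM to 65.1, 42.8 and 47.3. The groups were apart, by 0.95 on the log2 scale (SE 0.17, limma adjusted p = 0.0026). The remaining 5 degradation genes were not called. Their log2 fold changes were 0.28 for Edem1, -0.42 for Edem3, 0.09 for Herpud1, 0.29 for the ubiquitin ligase Syvn1 (HRD1) and 0.29 for its partner Sel1l. In Herpud1, whose promoter holds ERSE-II, normal samples ran from 45.1 to 58.5 FPKM and tumors from 41.5 to 63.1, and the sign turned without Tumor replicate 1 (-0.025) and under quantile normalization (-0.066).

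In the ATF4 arm, 2 genes rose and 4 were not called. Atf4 itself had 104.7, 118 and 91.1 FPKM in Normal and 195, 195 and 174 in Tumor. The groups were apart, by 0.85 on the log2 scale (SE 0.15, limma adjusted p = 0.0020). Trib3, a pseudokinase induced by ATF4 and CHOP, had 3.40, 3.96 and 3.98 FPKM in Normal and 20.3, 21.9 and 22.3 in Tumor. This was a log2 fold change of 2.50 (SE 0.14, limma adjusted p = 2.47e-05), larger than that of any chaperone.

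The other targets of the arm among the members did not follow Trib3. Ddit3, which encodes the death-linked factor CHOP, had 18.7, 20.7 and 19.4 FPKM in Normal and 15.8, 9.52 and 16.9 in Tumor. Every tumor was below every normal sample, yet the log2 fold change of -0.52 (SE 0.23) was not called (limma, adjusted p = 0.085). Ppp1r15a, the GADD34 subunit that restores translation, had 10.8, 14.9 and 9.62 FPKM in Normal and 10.4, 7.95 and 9.43 in Tumor. Chac1, which degrades glutathione, had 2.45, 3.18 and 1.75 FPKM in Normal and 2.19, 3.09 and 3.94 in Tumor. The groups overlapped for both, with log2 fold changes of -0.33 and 0.32 (SE 0.20 and 0.31, limma adjusted p = 0.196 and 0.405). Quantile normalization moved Chac1 to 0.89 and past the threshold (limma, adjusted p = 0.044). Over all alternatives its change ran down to 0.10, with limma adjusted p up to 0.821. Asns, asparagine synthetase, had 42.5, 51.4 and 47.9 FPKM in Normal and 43.7, 63.6 and 61.4 in Tumor. Tumor replicate 1 lay within the normal range, and the log2 fold change of 0.23 (SE 0.18) was not called (limma, adjusted p = 0.287). Without that sample it was 0.41 (limma, adjusted p = 0.038), and under quantile normalization it was 0.09 (limma, adjusted p = 0.713).

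Another 24 targets of ATF4 were tested, which serve amino acid transport and synthesis for the most part. Of these, 12 were higher and 5 lower, beside 28.8% higher and 31.7% lower over all genes. Their median log2 fold change was 0.69. The amino acid transporter Slc7a5 rose most, from 8.95 ± 2.22 to 100.3 ± 74.2 FPKM (SD, n = 3), a log2 fold change of 3.25 (SE 0.48, limma adjusted p = 0.0010). The secreted protein Stc2 fell most, by 1.40 on the log2 scale (SE 0.18, limma adjusted p = 0.00057).

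**Figure D3:**
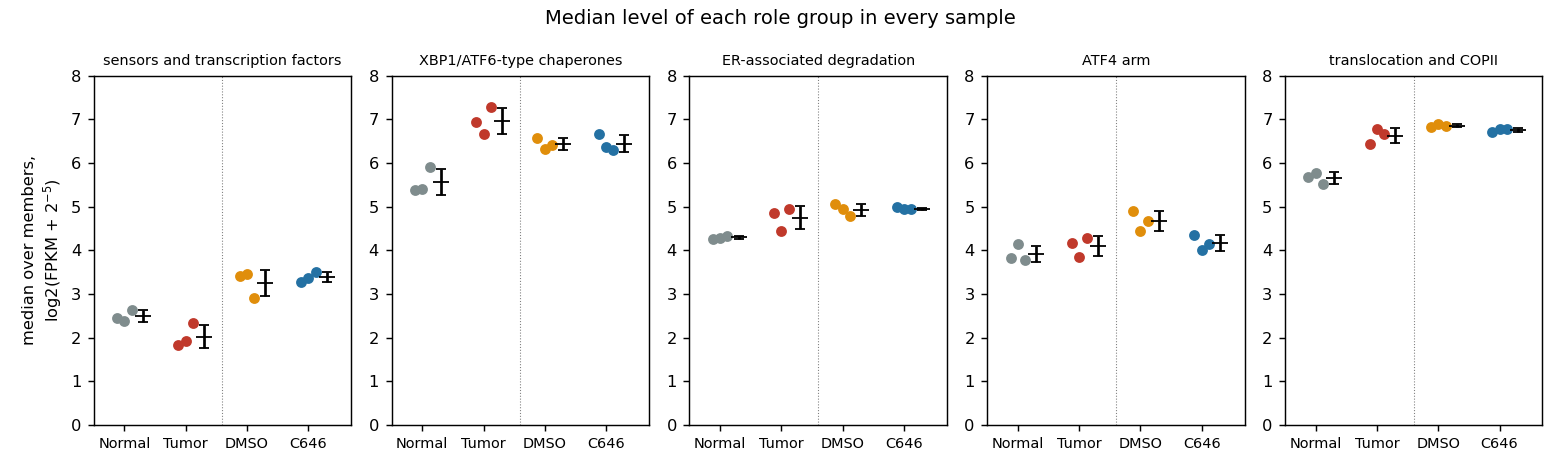
Median of log2(FPKM + 0.03125) over the members of each role in every sample, with Ern2 counted among the 6 sensors and factors; points are samples and bars are mean ± SD (n = 3). The chaperone medians are 5.39 to 5.90 in Normal and 6.67 to 7.28 in Tumor, while those of the ATF4 arm are 3.77 to 4.14 and 3.86 to 4.28.

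Set side by side in single samples, the median chaperone level on log2(FPKM + 0.03125) was 5.39, 5.41 and 5.90 in Normal and 6.94, 6.67 and 7.28 in Tumor, which do not overlap. The median of the ATF4 arm was 3.83, 4.14 and 3.77 in Normal and 4.16, 3.86 and 4.28 in Tumor, which overlap. Tumor replicate 3 had the highest FPKM of the tumors for 15 of 15 chaperones and Tumor replicate 2 the lowest for 10 of them. Among the normal samples, replicate 3 was the highest for 13 of 15. Most chaperones thus had the same sample highest within each of these groups, which is not shown to be particular to them. Over all 42 tested members, Tumor replicate 3 was the highest for 27, Tumor replicate 2 the lowest for 23 and Normal replicate 3 the highest for 22. How many of all genes shared this order was not counted.

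At the entrance to the ER, Sec61b and Sec61a1 encode the beta and main alpha subunits of the SEC61 channel. Sec61b had 124, 142 and 99.9 FPKM in Normal and 513, 506 and 504 in Tumor. Sec61a1 had 51.5, 54.6 and 45.6 FPKM in Normal and 136, 135 and 147 in Tumor. Both were higher in all tumors, by 2.07 and 1.46 on the log2 scale (SE 0.17 and 0.13, limma adjusted p = 7.58e-05 and 0.00010). Ssr2, a subunit of the translocon-associated TRAP complex, had 146, 132 and 131 FPKM in Normal and 505, 458 and 440 in Tumor, a log2 fold change of 1.78 (SE 0.14, limma adjusted p = 6.55e-05). The COPII coat subunit Sec23b rose from 18.3, 18.1 and 16.1 FPKM to 41.6, 32.6 and 39.1. None of these 4 genes overlapped between the groups, and Sec23b changed by 1.11 on the log2 scale (SE 0.14, limma adjusted p = 0.00054).

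The other TRAP subunits rose less. Ssr1 changed by 0.76 (SE 0.26, limma adjusted p = 0.040), with tumors from 41.7 to 87.9 FPKM. Ssr3 changed by 0.62 (SE 0.14, limma adjusted p = 0.0067). Quantile normalization ended both calls (adjusted p = 0.112 and 0.072), and Ssr1 kept its call without Tumor replicate 1 but lost it without any other single sample, at 0.53 (without Tumor replicate 2) to 0.79 (without Normal replicate 2) with adjusted p from 0.088 to 0.110. Sec24d, the cargo-binding COPII subunit, had a log2 fold change of 0.20 and was not called (limma, adjusted p = 0.397). Without Tumor replicate 1 it passed at 0.41 (limma, adjusted p = 0.039). Over all alternatives its change ran down to 0.09, with limma adjusted p up to 0.741.

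Genes of the same compartments outside the module were counted in the same fit, where 28.8% of all genes were higher and 31.7% lower. Of 17 other genes of translocation and signal peptide cleavage, 14 were higher and 0 lower, with a median log2 fold change of 1.08. The signal peptidase subunit Sec11c had the largest change, 2.22 (SE 0.18, limma adjusted p = 7.91e-05). Of 8 oligosaccharyltransferase genes, which attach sugars to entering chains, 7 were higher and 0 lower, with a median of 1.01 and the largest change in Ostc, 1.81 (SE 0.15, limma adjusted p = 8.49e-05). Of 16 other ER folding enzymes, 12 were higher and 1 lower, with a median of 0.67. The prolyl isomerases Fkbp11 and Fkbp14 marked the ends of the called genes at 2.95 and -0.80 (limma, adjusted p = 7.29e-05 and 0.031). Of 11 other degradation genes, 1 was higher (Vimp, 1.05) and 1 lower (Erlec1, -0.38), with a median of 0.09. Of 16 other COPII and ER-Golgi genes, 8 were higher and 2 lower, with a median of 0.49. Sec23a, the paralog of Sec23b, fell by 1.30 on the log2 scale (SE 0.18, limma adjusted p = 0.00072). Sec24c had the largest rise, 2.17, in the row of its own name, while a row that joins it with Fut11 changed by -0.15, so the level of Sec24c is uncertain.

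In C646 against DMSO no member was called, and none of 12083 genes was (limma with Benjamini-Hochberg adjustment at 0.05, background 0%, smallest adjusted p = 0.990). Unadjusted p under 0.05 was reached by 384 genes (3.18%) and by 2 of the 42 members, Ddit3 and Trib3. The groups did not overlap for 5 members: Syvn1 was higher in C646 and Ddit3, Trib3, Hspa5 and Sec61a1 were lower. Over all genes the groups were apart for 4.04% upward and 4.52% downward. The median log2 fold change was -0.03 for the members and -0.01 for all genes. With 3 samples against 3, an exact permutation test of a single value cannot give a p below 0.1.

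**Figure D4:**
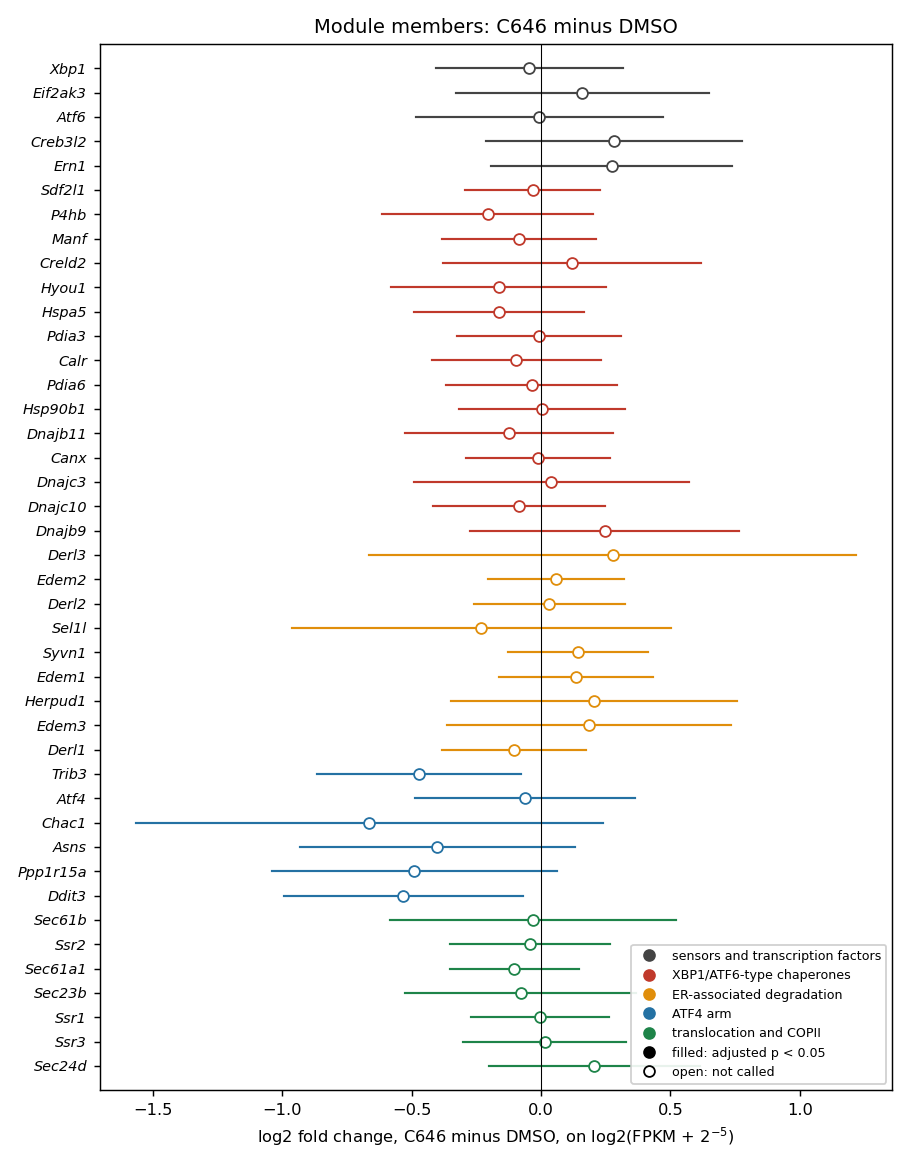
Log2 fold change of C646 over DMSO for each tested member, with 95% confidence intervals from limma (n = 3 against 3), ordered by role; no point is filled, since none passed an adjusted p of 0.05. All 6 points of the ATF4 arm lie below 0, with Atf4 at -0.06 close to it, and the chaperones lie around 0.

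The intervals bound what these 6 tumors could show. For 39 of the 42 members the 95% interval lay within -1 to 1 on the log2 scale, that is within a 2-fold change either way, and 2 intervals excluded 0. Xbp1 had 710.3, 840 and 819 FPKM in DMSO and 753, 718 and 822 in C646, summed over its 2 rows in these files. These overlapped, with a log2 fold change of -0.05 and an interval of -0.41 to 0.32. It was the most abundant member in 5 of these 6 tumors. Hspa5 had 759.9, 664 and 684 FPKM in DMSO and 644, 618 and 622 in C646. Every C646 tumor was lower, but the difference of -0.16 had an interval of -0.49 to 0.17 and was not called (limma, adjusted p = 0.990).

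By role, the medians of C646 over DMSO were -0.04 for the chaperones, -0.03 for translocation and COPII, 0.14 for degradation and 0.16 for the sensors and factors, and -0.48 for the ATF4 arm. Under quantile normalization the chaperones turned to 0.07 and translocation to 0.10, while the ATF4 arm was at -0.46. With 1 sample left out, the medians ran from -0.10 to 0.019 for the chaperones (above 0 without DMSO replicate 1 or C646 replicate 3), from -0.070 to 0.038 for translocation (above 0 without DMSO replicate 3 or C646 replicate 3), from -0.029 to 0.14 for degradation and from -0.017 to 0.29 for the sensors (both below 0 without DMSO replicate 3), and from -0.58 to -0.38 for the ATF4 arm. All 6 ATF4-arm genes were below 0, as were 53.1% of all genes, and Atf4 itself turned to 0.093 under quantile normalization. Of the 15 chaperones, 11 were below 0, none with an unadjusted p under 0.05.

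Within the ATF4 arm the 5 target genes stood at -0.40 or below and Atf4 at -0.06. Ddit3 had 37.3, 28.6 and 30.6 FPKM in DMSO and 27.7, 17.7 and 21.9 in C646. Every C646 tumor was below every DMSO tumor, with a log2 fold change of -0.53 and an interval of -0.99 to -0.07 (limma, adjusted p = 0.990). Trib3 had 24.1, 16.4 and 20.9 FPKM in DMSO and 15.1, 14.6 and 14.0 in C646. The groups were also apart, at -0.47 with an interval of -0.87 to -0.08 (limma, adjusted p = 0.990). Neither passes the correction over all genes.

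For the other 4 genes of the arm the groups overlapped. Ppp1r15a had 7.69, 8.75 and 12.3 FPKM in DMSO and 8.22, 6.40 and 5.65 in C646, a log2 fold change of -0.49 (interval -1.04 to 0.06). Chac1 had 2.94, 1.47 and 3.07 FPKM in DMSO and 1.74, 1.197 and 1.58 in C646, a change of -0.66 (interval -1.57 to 0.24). Asns was split, with 57.4, 43.6 and 59.6 FPKM in DMSO and 34.1, 54.7 and 34.7 in C646 and a change of -0.40 (interval -0.93 to 0.13). Atf4 had 140.4, 117 and 183 FPKM in DMSO and 139.5, 130 and 146 in C646, a change of -0.06 (interval -0.49 to 0.36) that turned to 0.11 without DMSO replicate 3. Of 22 other tested targets of ATF4, 20 were below 0, beside 53.1% of all genes, and 0 were called. Their median was -0.24, with 1 unadjusted p under 0.05 (limma). These targets come from the same 6 tumors as the arm and do not count as independent values.

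Syvn1 was the lone member with all C646 tumors above all DMSO tumors, at 37.1, 34.6 and 38.4 FPKM against 34.3, 30.9 and 34.6. The highest DMSO and lowest C646 samples all but met, and the log2 fold change was 0.14 (interval -0.13 to 0.41). Sec61a1 had 113, 119 and 117 FPKM in DMSO and 104, 111 and 110.5 in C646, a change of -0.10 (interval -0.35 to 0.15) that turned to 0.028 under quantile normalization. The remaining members ran from -0.23 for Sel1l to 0.28 for Creb3l2. The widest interval among them, -0.66 to 1.22, belonged to Derl3, which varied from 10.4 to 30.0 FPKM in DMSO and from 17.5 to 30.4 in C646. The joined row of Mir704 and Pdia4 changed by -0.19 (interval -0.50 to 0.11).

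Within the injected tumors, samples differed in what else they held, and for adipocyte markers the groups did too. Skeletal muscle markers summed to 0.774, 1.69 and 334 FPKM in DMSO and 338, 1.97 and 309 in C646, so that 3 of the 6 libraries carried them. Adipocyte markers summed to between 11.7 and 71.5 in DMSO and between 92.5 and 602 in C646. All 6 tested ones were above 0 in C646 minus DMSO, with a median log2 fold change of 4.32. All 6 had an unadjusted p under 0.05 (limma), beside 3.18% of all genes, and 0 were called. The part of this in the members' values was not tested. Luminal markers summed to between 3358 and 3828 in DMSO and between 3111 and 3721 in C646. B lymphocyte markers were near background, with 3 of 6 at 0 in all samples and sums of at most 0.843. Myoepithelial markers summed to 255 in DMSO replicate 3 and to between 21.9 and 58.0 in the others. When the 3 libraries with muscle markers above 300 were left out, an alternative chosen after seeing the data that leaves 2 DMSO and 1 C646 sample, Atf4 was at 0.016 and Asns at 0.13, and the ATF4 arm had a median of -0.40. DMSO replicate 1 had the highest FPKM of its group for 14 of 15 chaperones and C646 replicate 1 for 13 of 15. The first had muscle markers at 0.774 and the second at 338. The share of all genes highest in these samples was not counted.

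Some members stood at other levels in the untreated tumors than in the injected ones, which can only be set side by side. Dnajb9, lower in Tumor than in Normal, had 28.1 to 45.9 FPKM in DMSO and 37.1 to 50.1 in C646, a range that reaches the 42.0 to 59.8 of Normal. Derl1 had 31.2 to 37.0 FPKM in DMSO and 30.7 to 31.6 in C646, below all normal samples. Ddit3 had 9.52 to 16.9 FPKM in Tumor and 28.6 to 37.3 in DMSO. Ssr1 had 41.7 to 87.9 FPKM in Tumor and 27.5 to 29.9 in DMSO, below the 35.6 to 39.6 of Normal. Xbp1 was at 602 FPKM or above in all 9 tumors and at 85.3 or below in all 3 normal samples.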

How the data were processed

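Per the labels and the study's methods, RNA was selected for poly-A and made into libraries without strand information, reads were trimmed, mapped to mm10 with TopHat 2.1.1 and summarised with Cufflinks 2.2.1, and the authors deposited FPKM per gene in 12 samples. Overlapping and antisense genes can therefore not be told apart. The study's methods state a sequencing depth per library, but the read count that each library reached is unknown. Rows without a name (3.41% to 4.56% of the FPKM in Normal and Tumor) were dropped and rows of a repeated name summed, which concerned Xbp1 and Edem1 in the DMSO and C646 files. Groups came from the labels.

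Each pair of groups was fitted with limma 3.58.1 (R 4.3.3, eBayes with trend) on log2 of FPKM plus 0.03125. A gene entered a fit when 3 or more of its 6 samples reached 1 FPKM, and a call was a Benjamini-Hochberg adjusted p under 0.05 over all genes fitted. This scale understates the change of low genes. The script was tested on simulated data. Tables, motif counts and figures used Python 3.11.15 with pandas 2.3.3, numpy 2.4.6 and matplotlib 3.10.9. Gene positions came from GENCODE vM21, promoters from RefSeq.

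Members and gene lists were chosen with earlier results of these data known. Values per sample are given for all sensors, factors and ATF4-arm genes, for the 4 called members with the largest change in each other role, and for the 5 members with the largest change among those not overlapping between DMSO and C646, and other lists by the called gene with the largest change in each direction. Dnajb9 was added after its values were seen. Alternatives were other pseudocounts (1 and 0.25), no filter, median ratio scaling, quantile normalization, a replicate block, the highest row of a repeated name, each sample left out, and tumors low in muscle markers.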

Additional observations from a re-analysis of the deposited data

How the results depend on the processing

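Tumor against normal kept its direction for every called member in all alternatives run. Leaving out 1 sample at a time gave 23 to 26 members higher and 2 to 4 lower, and 3030 to 3373 genes higher and 2570 to 4172 lower over all genes, of which the lowest counts of lower genes were 2570 without Normal replicate 3 and 2686 without Normal replicate 2, when fewer genes were tested. The 4 lower members arose without Tumor replicate 3. Signs turned only in members that were not called: Dnajc10 went to -0.086 under quantile normalization and from -0.087 (without Tumor replicate 3) to 0.096 with 1 sample left out, and Herpud1 to -0.066 and from -0.025 (without Tumor replicate 1) to 0.28. The cause was not tested. Quantile normalization shifted the median of all genes by 0.13, to 0.12. For C646 against DMSO, 0 members and 0 higher genes were called in any alternative, and 0 to 12 genes were lower, with the 12 arising without DMSO replicate 2. There Atf4 went to 0.093 under quantile normalization, from -0.21 to 0.11 (without DMSO replicate 3) with 1 sample left out, and to 0.016 (tumors low in muscle markers, chosen after seeing the data), Asns to 0.13 in the last of these, and Sec61a1 to 0.028 under quantile normalization. Over all genes tested, same-numbered samples deviated together with r of -0.04, -0.10 and 0.01 (Normal with Tumor) and 0.17, 0.07 and 0.11 (DMSO with C646). With 3 samples a group these values cannot settle whether the numbers pair the samples, and the main fits did not pair them. Of 15 chaperones, replicate 3 was highest for 13 in Normal and 15 in Tumor. Replicate 1 was highest for 14 in DMSO and 13 in C646. These counts have no share over all genes beside them. A fit with the replicate block called 3439 genes higher and 3827 lower in tumor, among them 24 and 2 members without Derl2 (adjusted p = 0.072), and 0 genes for C646. With 3 samples a group and unknown read counts per library, changes smaller than the intervals given cannot be told from 0.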
